A study of Mus musculus with 12 samples.

Results

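Of the genes for chemokines, the secreted proteins that guide cell migration, 9 are followed here, namely Xcl1, Ccl1, Ccl3, Ccl4, Ccl5, Ccl17, Ccl22, Cxcl9 and Cxcl10. They were taken by name: each is a gene with a transcript cluster whose platform annotation gives that symbol alone, and the brightest cluster would have stood for a gene with several. All 9 had exactly 1 cluster, among 22180 genes measured on 12 Affymetrix arrays. The arrays held RNA of T cells from C57BL6-Foxp3-GFP mice, whose Foxp3 gene drives green fluorescent protein (GFP), so that cells could be sorted by Foxp3, a transcription factor that defines regulatory T cells. In every group 200000 resting T cells per well had been stimulated by 20000 BALB/c CD11c dendritic cells, which carry foreign transplantation antigens, in the presence of IL-2 at 5 ng/mL.

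There were 4 groups of 3 arrays, replicates A, B and C. CD8 Foxp3-positive cells had received TGFb at 5 ng/mL and retinoic acid (RA) at 40 nM beside the IL-2 for 4 days and were sorted as GFP-positive, while CD8 control cells had IL-2 alone for 4 days and were sorted as GFP-negative. CD4 Foxp3-positive and CD4 control cells were made in the same ways over 5 days. Within a cell type the added TGFb and RA and the sort on Foxp3 therefore changed together and cannot be told apart, and between the cell types the days of culture differed as well. Wells were pooled before staining, and nothing in the labels says that the replicates were separate cultures or animals, so the p-values measure the spread between these samples only, which may be technical. Values are log2 expression levels from RMA, the array normalization the authors used, and a log2 fold change of 1 is a doubling of array signal. No background level was available. The middle of all genes' mean levels was 5.60, and for members near or below it a fold change is a ratio of array signal, not of RNA amount.

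Chemokines are named by the spacing of their first cysteines (C, CC or CXC) and act on G protein-coupled receptors of the cells they attract. XCL1 acts on XCR1 of cross-presenting dendritic cells. CCL3, CCL4 and CCL5 are inflammatory chemokines of activated T cells, and CCL3 and CCL5 act on CCR1. CCL1 is the ligand of CCR8, CCL17 and CCL22 are the ligands of CCR4, a receptor of helper type 2 and regulatory T cells, and CXCL9 and CXCL10 are interferon-γ-induced ligands of CXCR3 on type 1 effector cells.

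The lineage genes followed the labels. Foxp3 was at 12.48 ± 0.05 in CD8 Foxp3-positive and 5.66 ± 0.59 in CD8 control cells, and at 12.44 ± 0.05 in CD4 Foxp3-positive and 5.76 ± 0.29 in CD4 control cells (SD, n = 3 each). Cd4 was at 5.17 and 5.36 in CD8 Foxp3-positive and CD8 control cells, and at 11.92 and 12.31 in CD4 Foxp3-positive and CD4 control cells. Cd8b1 was at 11.97 and 11.86 in CD8 Foxp3-positive and CD8 control cells. The CD4 groups differed in both CD8 genes and in opposite directions: Cd8b1 was at 6.17 in CD4 Foxp3-positive and 7.72 in CD4 control cells (log2 fold change -1.55 ± 0.14, adjusted p = 2.81e-06), and Cd8a at 7.54 in CD4 Foxp3-positive and 6.51 in CD4 control cells (1.03 ± 0.30, adjusted p = 0.0273). The Cd8a call was lost without replicate C of either CD4 group (adjusted p from 0.0967 to 0.107). That of Cd8b1 held with each of the 6 arrays left out in turn. The part of these CD8 gene differences in the CD4 chemokine values was not tested. The T cell receptor subunit Cd3e lay between 12.40 and 12.93 in the 4 groups. Across genes, which are not independent replicates, r was 0.992 to 0.994 within groups and 0.962 to 0.991 between groups. Dendritic cells had been in the wells and can make several of these chemokines. Of 20 dendritic cell markers measured, 13 lay at or above 5.60 over the 12 arrays, the brightest being H2-Ab1 (9.47), Cd209a (9.36) and Cd80 (9.16). In all 4 groups Zbtb46, Flt3, Xcr1, H2-Aa, Siglech and Mgl2 lay below 5.60. The log2 summed signal of the 20 markers was 11.74 to 11.90 in CD8 Foxp3-positive and 11.59 to 11.84 in CD8 control cells. In CD4 Foxp3-positive cells it was 11.79 to 12.10 and in CD4 control cells 11.60 to 11.88. The arrays of the groups thus overlapped in both cell types. Single markers moved in both directions: 5 rose and 3 fell in CD8 Foxp3-positive cells, and 5 rose and 2 fell in CD4 Foxp3-positive cells. Of all genes, 9.39% rose and 10.6% fell in CD8 cells, and 12.1% rose and 10.4% fell in CD4 cells. Itgax (CD11c) fell by 1.76 ± 0.13 on the log2 scale in CD8 cells (adjusted p = 1.02e-06). The class II accessory gene H2-DMb2, the receptor gene Cd40 and the integrin gene Itgam rose in both cell types, and the transcription factor gene Batf3 fell in both. H2-Ab1 fell by 1.05 in CD4 cells, a call lost with 4 of the 6 arrays left out in turn. The costimulatory ligand gene Cd80 fell by 0.64 ± 0.15 in CD8 cells and rose by 1.58 ± 0.15 in CD4 cells. Of 12 macrophage and monocyte markers, Lyz2 rose by 1.82 ± 0.29 in CD8 and 1.06 ± 0.29 in CD4 cells, to 6.37 in CD8 Foxp3-positive cells against 4.55 in CD8 control cells, and Cd68 fell by 0.63 ± 0.14 in CD8 and 1.19 ± 0.14 in CD4 cells. C1qb and Apoe rose in CD8 cells as well. The part of these cells in the chemokine values was not tested. As these are bulk samples, a change in the share of cells that make a transcript and a change in the amount per cell cannot be told apart.

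Of the 9 ligands, 3 passed the test in CD8 cells (limma, Benjamini-Hochberg adjusted p under 0.05 over all 22180 genes), where 20.0% of all genes did. Xcl1 and Ccl4 were higher and Ccl5 lower in CD8 Foxp3-positive cells, beside 9.39% of all genes higher and 10.6% lower. In CD4 cells 6 of 9 passed, where 22.5% of all genes did, with Xcl1 and Ccl17 higher and Ccl3, Ccl4, Ccl5 and Cxcl10 lower in CD4 Foxp3-positive cells, beside 12.1% of all genes higher and 10.4% lower. Without CD4 control replicate A only 3 of these 6 passed, Xcl1, Ccl3 and Ccl5. The median log2 fold change of the 9 ligands was 0.49 in CD8 cells and -0.15 in CD4 cells, beside -0.02 and 0.00 over all genes. The arrays of Foxp3-positive and control cells did not overlap for 5 ligands in CD8 cells and 6 in CD4 cells, a state that 33.5% and 37.8% of all genes were in. Xcl1 rose in both cell types and Ccl5 fell in both, while Ccl3 and Ccl4 had log2 fold changes of opposite sign in the 2 cell types.

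**Figure D1:**
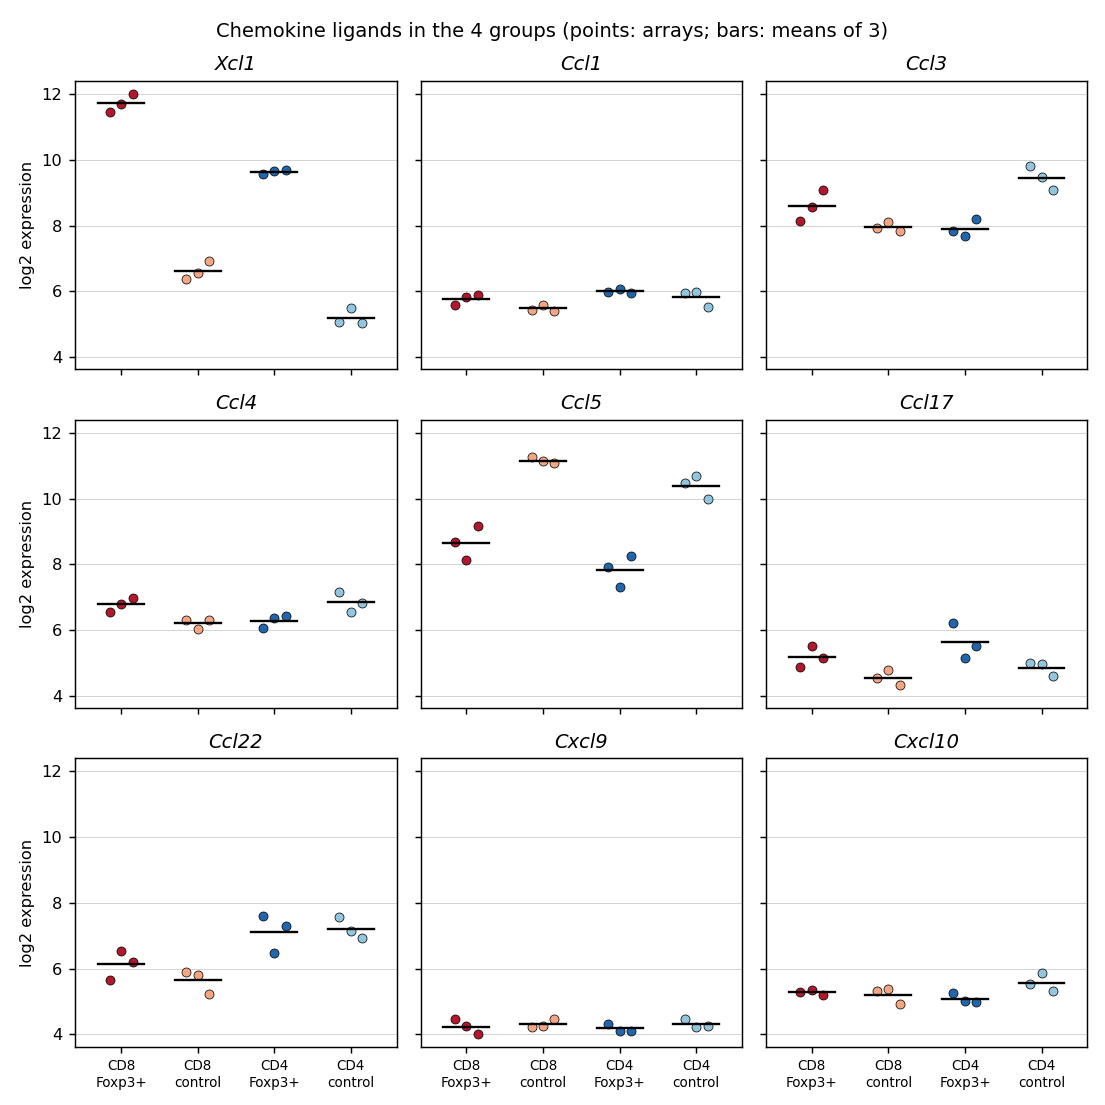
Log2 expression (y axis, same scale in all panels) of the 9 chemokine ligands in CD8 Foxp3-positive, CD8 control, CD4 Foxp3-positive and CD4 control cells (x axis). Points are single arrays and bars are means of 3. Xcl1 stands apart between Foxp3-positive and control cells, at 11.72 against 6.62 in CD8 and 9.64 against 5.20 in CD4 cells, Ccl5 has the reverse pattern, and Cxcl9 stays between 4.02 and 4.47.

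Xcl1 encodes lymphotactin, the C-family chemokine that CD8 T cells and natural killer cells make. Its level on arrays A, B and C was 11.46, 11.69 and 12.00 in CD8 Foxp3-positive cells, against 6.37, 6.55 and 6.93 in CD8 control cells. Every CD8 Foxp3-positive array lay far above every CD8 control array. That was a 34.2-fold difference (log2 fold change 5.10 ± 0.17, 95% interval 4.73 to 5.46, adjusted p = 8.26e-10). In CD4 cells the arrays read 9.57, 9.66 and 9.68 in Foxp3-positive cells, against 5.06, 5.49 and 5.04 in control cells. Again the groups were wide apart, and the difference was 21.7-fold (log2 fold change 4.44 ± 0.17, interval 4.07 to 4.80, adjusted p = 1.87e-09). The CD4 control mean of Xcl1, 5.20, lay below 5.60. Its fold changes against CD4 control cells, also in the comparisons below, are thus ratios of array signal, not of RNA amount. The CD8 effect exceeded the CD4 effect by 0.66 ± 0.24 on the log2 scale, which did not pass (interval 0.14 to 1.18, adjusted p = 0.0917). It passed without CD8 control replicate C (difference 0.82, adjusted p = 0.0323).

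The level of Xcl1 also followed the cell type. It was 4.23-fold higher in CD8 than in CD4 Foxp3-positive cells (log2 fold change 2.08 ± 0.17, adjusted p = 1.84e-05), the one ligand of 9 to pass there, where 4.71% of all genes passed, 2.41% higher and 2.30% lower in CD8 cells. Between the controls it was 2.68-fold higher in CD8 than in CD4 cells (1.42 ± 0.17 on the log2 scale, adjusted p = 5.85e-05). The 4 groups thus lay in the order CD8 Foxp3-positive, CD4 Foxp3-positive, CD8 control, CD4 control, and each neighbour in that order differed without overlap between arrays. Xcr1, the gene of its receptor and a marker of cross-presenting dendritic cells, was at 4.77 and 4.84 in CD8 Foxp3-positive and CD8 control cells and at 4.93 and 5.08 in CD4 Foxp3-positive and CD4 control cells, and passed in neither comparison. Among natural killer cell markers, Klri2 was higher in Foxp3-positive cells, at 7.82 against 5.07 in CD8 and 7.29 against 4.72 in CD4 cells (adjusted p = 1.01e-06 and 1.29e-06). The defining marker Ncr1 and the other 3 measured, Klrb1c, Klre1 and Klrb1b, lay below 5.60 in all groups.

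RefSeq promoter windows (GRCm38.p6) were found for 7 of the 9 genes, all except Ccl4 and Ccl5. The 250 bases before the start are shown for 3 of them, for the ligand with the steepest rise (Xcl1), for one whose effect differed between the cell types (Ccl3) and for an interferon-induced ligand that stayed low (Cxcl10). Capitals mark matches, on either strand, to 8 motifs: NF-kB (GGGA and CC with any 4 bases between), the NFAT core (GGAAA), AP-1 (TGANTCA), STAT (TTCNNNGAA), the interferon response element (GAAA, any 2 bases, GAAA), the Smad core (CAGAC), the retinoid half-site (AGGTCA) and the TATA box (TATAAA).
Xcl1, chr1:164935523-164935772, minus strand: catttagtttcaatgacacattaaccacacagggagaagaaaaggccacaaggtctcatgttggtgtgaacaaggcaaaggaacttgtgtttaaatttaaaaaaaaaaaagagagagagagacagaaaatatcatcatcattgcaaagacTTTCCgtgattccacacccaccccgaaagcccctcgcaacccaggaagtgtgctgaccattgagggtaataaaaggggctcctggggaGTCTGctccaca
Ccl3, chr11:83649379-83649628, minus strand: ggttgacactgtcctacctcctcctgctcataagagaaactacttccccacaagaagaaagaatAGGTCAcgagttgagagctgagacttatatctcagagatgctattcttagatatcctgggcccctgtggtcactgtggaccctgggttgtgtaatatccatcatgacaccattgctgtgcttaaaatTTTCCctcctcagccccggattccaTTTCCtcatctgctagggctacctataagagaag
Cxcl10, chr5:92348890-92349139, minus strand: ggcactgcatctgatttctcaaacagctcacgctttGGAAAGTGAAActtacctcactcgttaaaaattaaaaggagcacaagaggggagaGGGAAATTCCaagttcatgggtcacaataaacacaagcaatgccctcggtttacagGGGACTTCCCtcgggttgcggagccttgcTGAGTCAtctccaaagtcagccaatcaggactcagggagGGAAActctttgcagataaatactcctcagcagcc
The Xcl1 window held 1 NFAT core, 100 bases before the start, and 1 Smad core, 12 bases before it, and none of the other 6 motifs. The NFAT core is in 55.6% and the Smad core in 42.2% of 32851 promoter windows, so neither sets Xcl1 apart. The Ccl3 window held 2 NFAT cores and a retinoid half-site, which is in 14% of windows. The Cxcl10 window held 3 NF-kB matches, of which a pair is the same 10 bases matched on both strands, and an NFAT core lies within the match farther from the start. It also held 1 AP-1 match and 1 interferon response match, found in 6.75% and 2.98% of all windows, the second overlapping another NFAT core, and 17.6% hold an NF-kB match. A retinoid half-site stood in the windows of Ccl3, Ccl17, Ccl22 and Cxcl9, and a Smad core in those of Xcl1, Ccl1, Ccl17 and Ccl22. These are matches of letters only.

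Ccl5, also called RANTES, is a late product of activated T cells and typical of effector CD8 cells. It was at 8.68, 8.14 and 9.15 on the 3 CD8 Foxp3-positive arrays, against 11.25, 11.15 and 11.07 in CD8 control cells. The fall was 5.64-fold (log2 fold change -2.50 ± 0.26, interval -3.07 to -1.92, adjusted p = 1.93e-05). The 3 CD4 Foxp3-positive arrays read 7.92, 7.31 and 8.24, against 10.48, 10.67 and 10.00 in CD4 control cells, a 5.9-fold fall (log2 fold change -2.56 ± 0.26, adjusted p = 1.1e-05). In both cell types every Foxp3-positive array lay below every control array. The 2 effects differed by 0.07 ± 0.37, with an interval of -0.74 to 0.87, so a moderate difference between the cell types cannot be told from none. Replicate B had the lowest Ccl5 level in both Foxp3-positive groups, which had SDs of 0.50 in CD8 and 0.48 in CD4 cells. CD8 cells had more Ccl5 than CD4 cells by 0.84 ± 0.26 among Foxp3-positive and 0.77 ± 0.26 among control cells, and neither passed (adjusted p = 0.107 and 0.0564). The first passed without CD8 Foxp3-positive replicate B (1.09, adjusted p = 0.0415).

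Ccl3 and Ccl4 encode the macrophage inflammatory proteins MIP-1α and MIP-1β, released soon after T cell receptor stimulation. Ccl3 was at 8.15, 8.55 and 9.07 in CD8 Foxp3-positive cells, against 7.92, 8.10 and 7.83 in CD8 control cells. The groups did not overlap, but by little, and the difference of 0.64 ± 0.23 did not pass (interval 0.15 to 1.13, adjusted p = 0.068). Without CD8 Foxp3-positive replicate A it passed (0.86, adjusted p = 0.02). Ccl3 was at 7.84, 7.67 and 8.20 in CD4 Foxp3-positive cells, set against 9.82, 9.48 and 9.08 in CD4 control cells. It fell 2.94-fold there (log2 fold change -1.56 ± 0.23, adjusted p = 0.000228). CD4 control cells were thus the high group, 0.87 above CD8 Foxp3-positive cells (adjusted p = 0.0141), and the other neighbours in the order of levels (CD8 Foxp3-positive, CD8 control, CD4 Foxp3-positive) did not differ past the threshold.

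Ccl4 had the same signs at a smaller size. It was at 6.56, 6.80 and 6.98 in CD8 Foxp3-positive cells, against 6.29, 6.04 and 6.30 in CD8 control cells, and rose 1.48-fold (log2 fold change 0.57 ± 0.16, adjusted p = 0.0218). Its CD4 Foxp3-positive arrays were at 6.06, 6.36 and 6.43, against 7.14, 6.55 and 6.83 in CD4 control cells, a 1.48-fold fall (log2 fold change -0.56 ± 0.16, adjusted p = 0.0213). Neither pair of groups overlapped. Leaving out replicate B of the CD8 controls, or replicate B or C of CD8 Foxp3-positive cells, ended the CD8 call (adjusted p from 0.0616 to 0.0969), as leaving out replicate A or C of the CD4 controls or replicate A of CD4 Foxp3-positive cells ended the CD4 call (adjusted p from 0.0531 to 0.09).

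The difference between the cell types was tested directly for all 9 ligands, and 2 passed, where 13.5% of all genes did, 6.01% with the CD8 effect above the CD4 effect and 7.48% with it below. The CD8 effect minus the CD4 effect was 2.19 ± 0.32 for Ccl3 (interval 1.50 to 2.89, adjusted p = 0.000686) and 1.13 ± 0.22 for Ccl4 (interval 0.64 to 1.61, adjusted p = 0.00495). Both passed with any one of the 12 arrays left out. The gap between the controls was part of it: Ccl3 was lower in CD8 than in CD4 control cells by 1.51 ± 0.23 (adjusted p = 0.000384) and Ccl4 by 0.63 ± 0.16 (adjusted p = 0.0117). The Ccl4 gap did not pass without CD8 control replicate B or CD4 control replicate A (adjusted p from 0.0526 to 0.0531). Among Foxp3-positive cells the differences were 0.69 ± 0.23 for Ccl3 and 0.50 ± 0.16 for Ccl4, CD8 over CD4, and did not pass (adjusted p = 0.126 and 0.112). RefSeq lists the 2 genes as neighbours with overlapping spans, and their coding sequences are related, so their levels are uncertain to the extent that probes of one can read the other.

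**Figure D2:**
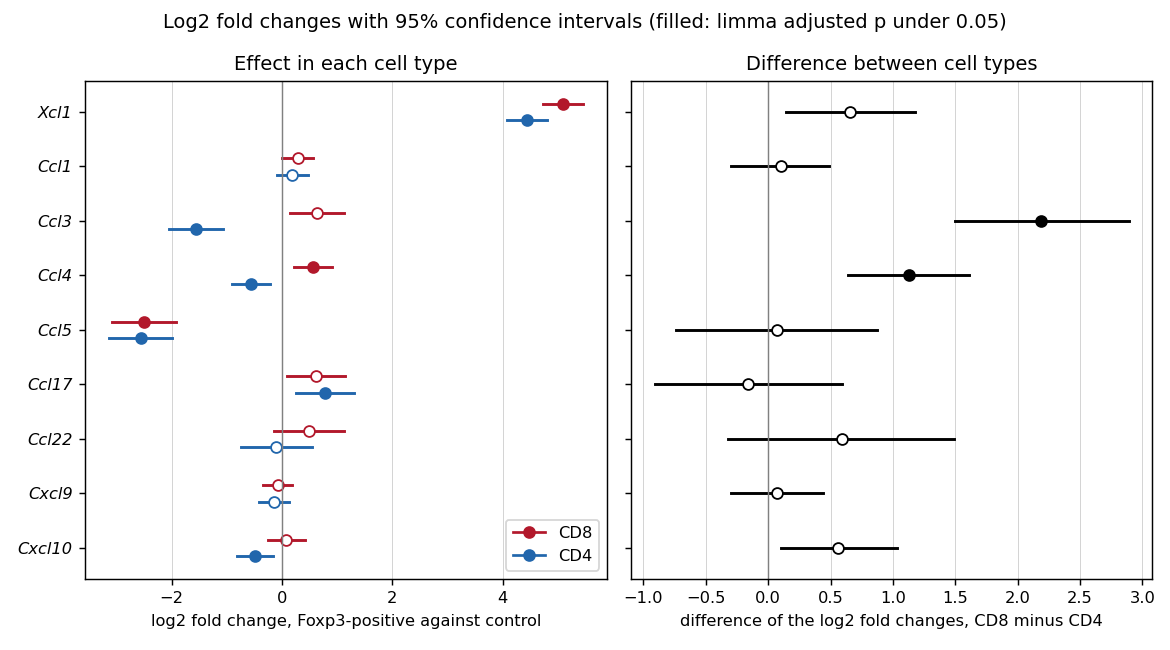
Left, log2 fold change of each ligand in Foxp3-positive against control cells (x axis), in CD8 (red) and CD4 cells (blue). Right, the CD8 minus CD4 difference of these effects. Points are limma estimates, lines are 95% intervals, and filled points passed an adjusted p of 0.05: Xcl1 lies at 5.10 and 4.44, Ccl5 at -2.50 and -2.56, and only Ccl3 (2.19) and Ccl4 (1.13) passed on the right.

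Ccl17 and Ccl22, known as products of mature dendritic cells, are ligands of the same receptor. Ccl17 was at 4.86, 5.52 and 5.13 in CD8 Foxp3-positive cells, against 4.53, 4.79 and 4.32 in CD8 control cells, a difference of 0.62 ± 0.24 that did not pass (adjusted p = 0.0998). In CD4 Foxp3-positive cells the arrays read 6.22, 5.14 and 5.52, against 4.99, 4.96 and 4.59 in CD4 control cells, and the level rose 1.72-fold (0.78 ± 0.24 on the log2 scale, adjusted p = 0.0362). Array A stood highest and the groups did not overlap. That call was lost with any array of the 2 groups left out other than replicate B of CD4 Foxp3-positive cells (adjusted p from 0.0551 to 0.136). Without CD4 Foxp3-positive replicate A the estimate was 0.48, and without replicate B it was 1.03. Of the 4 group means 3 lay below 5.60.

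Ccl22 was at 5.66, 6.54 and 6.21 in CD8 Foxp3-positive cells, against 5.91, 5.81 and 5.23 in CD8 control cells (difference 0.49 ± 0.30, adjusted p = 0.314). In CD4 cells it was at 7.60, 6.48 and 7.29 in Foxp3-positive cells, against 7.58, 7.14 and 6.93 in control cells (difference -0.10 ± 0.30, adjusted p = 0.864). The groups overlapped in both cell types, and the intervals ran from -0.15 to 1.13 and from -0.74 to 0.54. Its level went with the cell type instead: in control cells it was 2.97-fold lower in CD8 than in CD4 cells (-1.57 ± 0.30 on the log2 scale, adjusted p = 0.00196). Between Foxp3-positive cells the difference was -0.98 ± 0.30, CD8 over CD4, and did not pass (adjusted p = 0.091), but passed without CD4 Foxp3-positive replicate B (-1.30, adjusted p = 0.0216). The part of dendritic cell RNA in Ccl17 and Ccl22 was not tested.

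Cxcl9 and Cxcl10 stayed low. Cxcl9 ranged from 4.02 to 4.45 in CD8 Foxp3-positive and 4.23 to 4.45 in CD8 control cells, and from 4.10 to 4.32 in CD4 Foxp3-positive and 4.23 to 4.47 in CD4 control cells. All groups overlapped, with differences of -0.08 ± 0.12 in CD8 and -0.15 ± 0.12 in CD4 cells (adjusted p = 0.757 and 0.452) and intervals within -0.41 to 0.19. Cxcl10 was at 5.29, 5.35 and 5.21 in CD8 Foxp3-positive cells, against 5.31, 5.39 and 4.91 in CD8 control cells (0.08 ± 0.15, adjusted p = 0.807). Its CD4 Foxp3-positive arrays were at 5.26, 5.02 and 4.97, against 5.53, 5.86 and 5.32 in CD4 control cells, a 1.4-fold fall (log2 fold change -0.49 ± 0.15, adjusted p = 0.0353). The call was lost without CD4 control replicate A or B or CD4 Foxp3-positive replicate B or C (adjusted p from 0.0666 to 0.153), and all 12 arrays but 1 lay below 5.60.

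Ifng, the cytokine that induces both CXC genes, fell in both cell types. It was at 4.47, 4.55 and 4.10 in CD8 Foxp3-positive cells, against 6.54, 6.81 and 6.55 in CD8 control cells (log2 fold change -2.26 ± 0.25, adjusted p = 3.1e-05). CD4 Foxp3-positive arrays read 4.81, 4.20 and 4.41, against 8.66, 8.29 and 7.46 in CD4 control cells (-3.66 ± 0.25, adjusted p = 3.16e-07). Of 9 measured genes of the interferon-γ axis, 5 rose in CD8 cells and Ifng alone fell. In CD4 cells 3 rose and 3 fell. Of all genes, 20.0% passed in CD8 and 22.5% in CD4 cells. The receptor chain Ifngr2 rose by 2.29 ± 0.14 in CD8 and 1.26 ± 0.14 in CD4 cells, and the kinase gene Jak2 fell by 1.07 ± 0.12 in CD4 cells. The list's median log2 fold change was 0.28 in CD8 and 0.16 in CD4 cells.

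Ccl1 has been described as a product of helper type 2 cells and of other activated T cells. It was at 5.58, 5.83 and 5.88 in CD8 Foxp3-positive cells, against 5.43, 5.59 and 5.41 in CD8 control cells (0.29 ± 0.13, adjusted p = 0.156). Arrays of CD4 Foxp3-positive cells read 5.99, 6.06 and 5.96, against 5.94, 5.99 and 5.51 in CD4 control cells (0.19 ± 0.13, adjusted p = 0.35). Its 4 group means spanned 0.53, no neighbours in their order differed past the threshold, and the interval of the CD4 difference ran from -0.09 to 0.47. In the controls Ccl1 was lower in CD8 than in CD4 cells by 0.34 ± 0.13, which did not pass (adjusted p = 0.0877) but did without CD4 control replicate C (-0.49, adjusted p = 0.00966). Of the 4 ligands that passed between the controls, where 20.9% of all genes passed (12.1% higher and 8.76% lower in CD8 cells), Xcl1 was higher and Ccl3, Ccl4 and Ccl22 were lower in CD8 cells. Arrays of the controls did not overlap for 5 of the 9 ligands (33.7% of all genes), and those of the Foxp3-positive cells for 3 (22.7%).

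Other cytokines of stimulated T cells also had effects that differed between the cell types. Of 10 measured, 5 rose and Ifng alone fell in CD8 Foxp3-positive cells, where 20.0% of all genes passed. In CD4 Foxp3-positive cells 3 rose and 6 fell, where 22.5% of all genes passed. The median log2 fold changes of the 10 were 0.70 and -1.76. Il3, Il4 and Il13 lay below 5.60 in both CD8 groups, so the CD8 rise of Il4 (5.02 against 4.43) was between low signals. Without CD8 Foxp3-positive replicate B the CD8 calls of Tnf and Il4 were lost (adjusted p up to 0.0541 and 0.0607 over the arrays whose absence ended them), which left 3 of the 5. The difference of the effects passed for 6 of the 10, where 13.5% of all genes passed. That of Ifng was lost with 5 of the 12 arrays left out (adjusted p from 0.0501 to 0.0548). All 6 had the CD8 effect above the CD4 effect, as for Ccl3 and Ccl4. Of the 4 that did not pass, Il2 had a difference of 0.26, but Lta (-0.96), Tnf (-0.12) and Tnfsf11 (-0.10) went the other way. These 3 rose in both cell types, and Lta passed without CD8 control replicate C (-1.40, adjusted p = 0.00323). Il13 was at 5.35 ± 0.12 in CD8 Foxp3-positive and 5.53 ± 0.22 in CD8 control cells, and at 5.24 ± 0.29 in CD4 Foxp3-positive and 12.01 ± 0.11 in CD4 control cells. The difference of its effects was 6.59 ± 0.21 (adjusted p = 2.57e-09). Il10 and Il4 had differences of 5.72 ± 0.42 and 5.02 ± 0.21 and were likewise highest in CD4 control cells, at 10.34 ± 0.07 and 8.94 ± 0.24.

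Of the 27 other chemokine ligands measured, few moved, where 20.0% of all genes passed in CD8 and 22.5% in CD4 cells. In CD8 cells Pf4 alone passed (0.46 ± 0.12, adjusted p = 0.0138). In CD4 cells Ccl20 and Ccl27a rose and Cxcl3 and Cxcl5 fell. Their median log2 fold changes were 0.05 and -0.02, and 4 of the 27 lay at or above 5.60 over the 12 arrays, against 6 of the 9 followed here. Cxcl3, a neutrophil-attracting CXC chemokine, had CD4 Foxp3-positive arrays at 2.78, 2.08 and 2.59 and CD4 control arrays at 5.97, 5.39 and 5.68 (log2 fold change -3.20 ± 0.30, adjusted p = 4.3e-06). In the CD8 groups it lay between 2.07 and 3.26, so CD4 control cells stood apart for Cxcl3 as for Ccl3. Ccl20, the CCR6 ligand, had CD4 Foxp3-positive arrays at 6.03, 6.24 and 6.01 and CD4 control arrays at 5.44, 5.36 and 5.57 (0.64 ± 0.11, adjusted p = 0.000753). The calls of Pf4, Ccl27a and Cxcl5, which were named after their values were seen, were each lost without some single arrays (highest adjusted p 0.0595, 0.144 and 0.115).

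**Figure D3:**
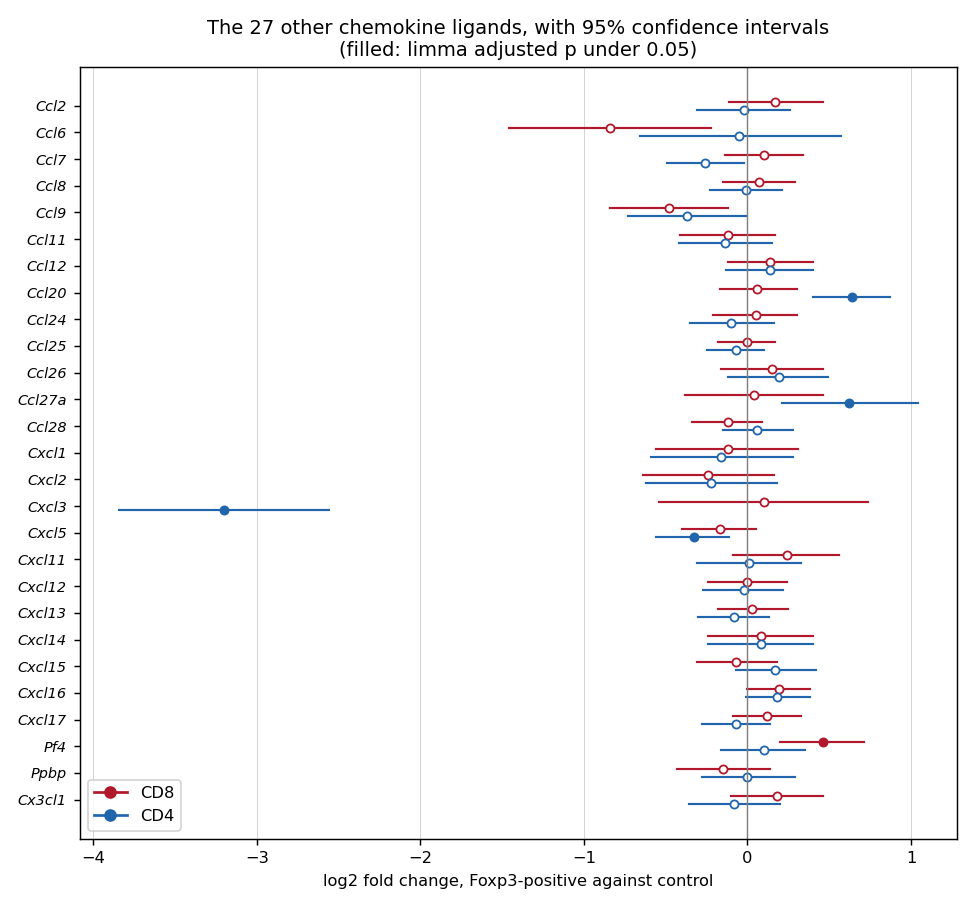
Log2 fold changes in Foxp3-positive against control cells (x axis) of the 27 other chemokine ligands measured, with 95% intervals, in CD8 (red) and CD4 cells (blue). Filled points passed an adjusted p of 0.05. Cxcl3 in CD4 cells, at -3.20, is the largest change, and 26 of 27 ligands in CD8 cells and 23 of 27 in CD4 cells have open points.

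Receptors and related chemokine-binding proteins were described for 9 genes. In CD8 cells 3 of these passed, where 20.0% of all genes did, all higher, namely Ccr8, Ccr4 and the scavenger receptor gene Ackr2. In CD4 cells 2 of the 9 passed, both lower, namely Ccr1 and Ccr3, much the same share as the 22.5% of all genes. Ccr3 was at 3.43 in CD4 Foxp3-positive and 4.83 in CD4 control cells, both below 5.60. The Ackr2 rise (0.40 ± 0.12, adjusted p = 0.0374) was lost with 5 of the 6 arrays left out in turn. Ccr8, the receptor for CCL1, was at 7.25, 7.49 and 7.62 in CD8 Foxp3-positive cells, against 3.81, 4.43 and 4.00 in CD8 control cells, and was high in CD4 cells in both groups, at 9.54 ± 0.07 in CD4 Foxp3-positive and 9.82 ± 0.06 in CD4 control cells. Ccr4, the receptor for CCL17 and CCL22, was at 9.72, 9.35 and 9.29 in CD8 Foxp3-positive cells, against 8.14, 8.11 and 7.40 in CD8 control cells (log2 fold change 1.57 ± 0.18, adjusted p = 4.72e-05). Ccr4 in CD4 cells was at 10.41 ± 0.14 in Foxp3-positive and 10.28 ± 0.16 in control cells. Ccr1, a receptor for CCL3 and CCL5, had CD4 Foxp3-positive arrays at 4.22, 3.91 and 3.54 and CD4 control arrays at 7.84, 7.95 and 7.63, a 15.1-fold fall (-3.92 ± 0.16, adjusted p = 3.39e-09). Cxcr3 passed in neither Foxp3 comparison, and was 3.14-fold and 2.16-fold higher in CD8 than in CD4 cells among Foxp3-positive and control cells (adjusted p = 0.000181 and 0.00076).

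**Figure D4:**
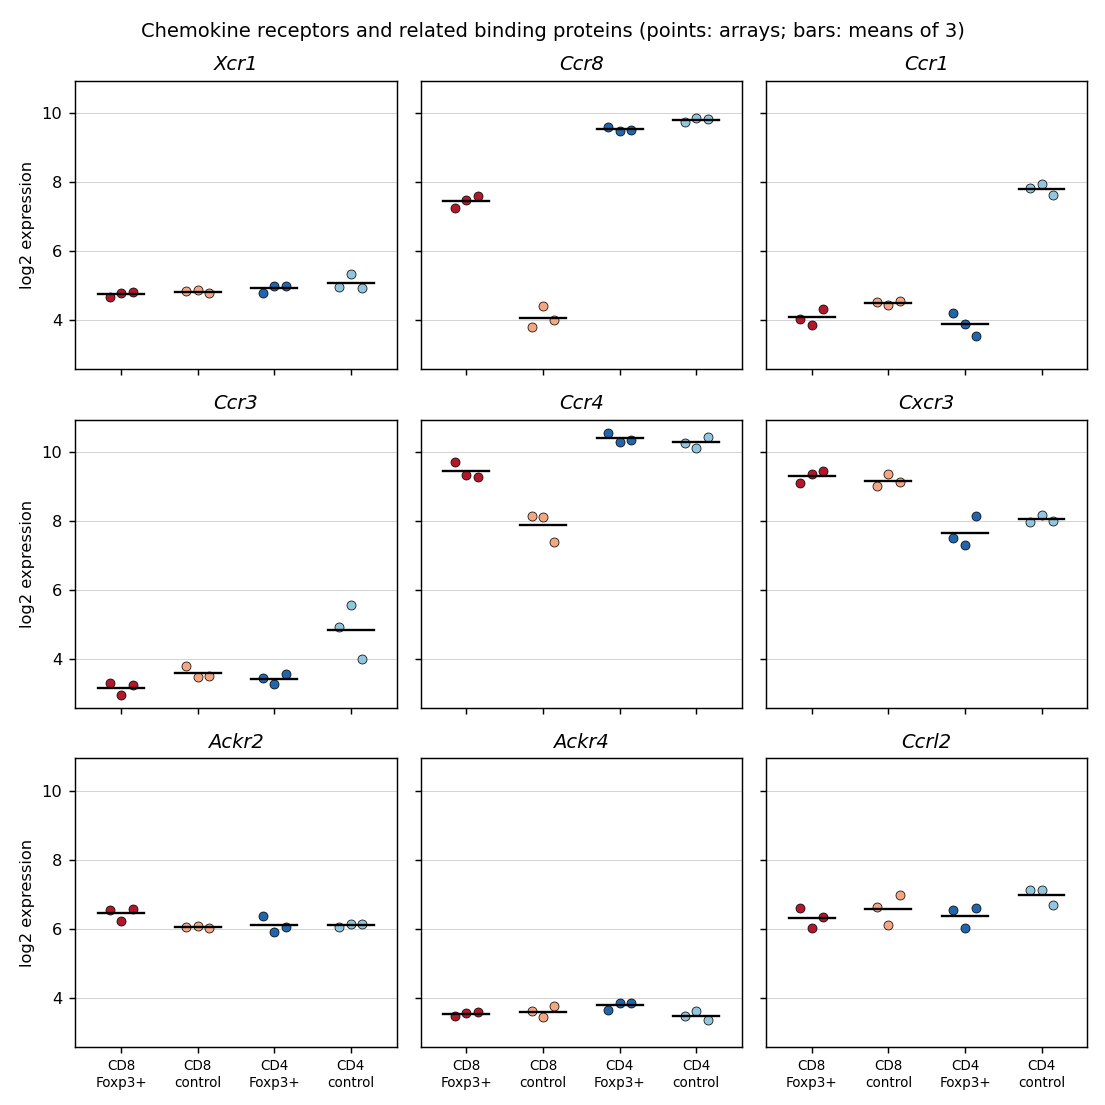
Log2 expression (y axis, same scale in all panels) of 9 chemokine receptors and related binding proteins in the 4 groups (x axis). Points are single arrays and bars are means of 3. Ccr8 is lowest in CD8 control cells, at 4.08, Ccr1 stands high in CD4 control cells alone, at 7.81, and Xcr1 lies between 4.68 and 5.34 on all arrays.

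The ligand genes lie in groups on the chromosomes. By RefSeq gene order, Ccl5 and Ccl9 have no other protein-coding gene between them, nor have Ccl6 and Ccl3. Beside the falls of Ccl5, Ccl9 had differences of -0.48 ± 0.17 in CD8 and -0.37 ± 0.17 in CD4 cells and did not pass (adjusted p = 0.0588 and 0.139). Ccl6 did not pass either (-0.84 ± 0.28, adjusted p = 0.0561 in CD8 cells, and -0.05 ± 0.28, adjusted p = 0.934 in CD4 cells). In CD8 cells the Foxp3-positive arrays of both lay below the control arrays without overlap, and Ccl9 passed without CD8 control replicate A (adjusted p = 0.0231) and Ccl6 without CD8 Foxp3-positive replicate C (adjusted p = 0.0299). Differences between neighbouring genes were not tested. Cx3cl1 is the one protein-coding gene between Ccl22 and Ccl17, and 1 gene lies between Cxcl9 and Cxcl10. Ccl9, Ccl6 and Cx3cl1 were chosen for their position.

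For the 5 ligands whose group means spanned at least 1, the genes with the most similar pattern were sought among 10913 genes, by the root mean square difference over the 12 arrays after each gene was centred on its own mean. For Xcl1, whose group means spanned 6.52, these were the immunoglobulin variable gene Igh-VS107 (0.77), Hepacam2 (0.79) and the glucagon-like peptide receptor gene Glp1r (0.80). For Ccl5 they were the membrane protein gene Ms4a4b (0.27), Gramd3 (0.39) and Gpr141 (0.40), and for Ccl3 Mansc1 (0.27), the actin-severing gene Scin (0.27) and Apol7e (0.28), each highest in CD4 control cells. Those for Ccl17 were Ltf, Tuba8 and Tnfaip8l1 (0.27 each), and those for Ccl22 Osr2 (0.41), Uba7 (0.41) and Plagl2 (0.42). On the same measure Ccl4 differed from Ccl3 by 0.46, and less from Cxcl9 and Cxcl10 (0.36 each) and from Ccl1 (0.37). Ccl17 differed from Ccl22 by 0.57, and less from Ccl1 (0.36), Cxcl9 (0.55) and Cxcl10 (0.56). The measure is not scaled to the size of a gene's changes, so ligands that change little lie near one another whatever their direction. The group means of Cxcl9, Cxcl10, Ccl1 and Ccl4 spanned 0.15, 0.49, 0.53 and 0.63, and those of Ccl17, Ccl3 and Ccl22 1.08, 1.56 and 1.57.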

How the data were processed

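Total RNA of the sorted T cells was labelled with biotin and hybridised to Affymetrix arrays (250 ng per sample), per the labels. Per the submitters' processing notes, the authors used RMA and Affymetrix Expression Console, and the deposited values are log2 expression levels per transcript cluster. RMA corrects background and gives all arrays one distribution, so a change in total RNA per cell would not show. Neither versions nor a genome build were named in any source used here. There were 34365 clusters on 12 arrays with medians of 5.23 to 5.33, and no scan date or other batch is given in the labels. The number of arrays limits the precision.

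Of the clusters 23521 had 1 symbol in the platform annotation, 1814 several and 9030 none; the first kind gave 22180 genes, the brightest cluster standing for the 1082 genes with more than 1, and no gene was removed for a low level. One model of 4 group means over all 12 arrays was fitted with limma 3.58.1 (R 4.3.3, lmFit and eBayes, 8 residual and 4.56 prior degrees of freedom). Benjamini-Hochberg adjustment of the p-values ran over all 22180 genes in each of 5 comparisons. Fold changes, errors (SE) and 95% intervals come from this model. On simulated data of 22180 genes with 200 changed, the CD8 comparison recovered 43.3% of changes of 0.5 and 100% of changes of 1 and of 2 on the log2 scale, and the CD8 minus CD4 difference 8.96, 82.1 and 97%. In the data 4430 and 2993 genes passed in these 2 comparisons. The adjusted threshold thus fell elsewhere than in the simulation, whose recovery cannot be carried over as it stands.

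All 9 ligands are named. Of each other list at most 3 members are named, those with the largest change among called genes with a mean of at least 5.60 in the higher group, and of marker lists also the 3 brightest; other names are said to lie outside this rule or stand where a count was small, and Xcr1 and Cxcr3 as receptors of the ligands described. B cell markers were set beside the groups too: Cd79b was at 8.47 in CD8 Foxp3-positive and 7.37 in CD8 control cells, and the other 7 of 8 lay below 5.60 in all groups. Of 12 macrophage and monocyte markers at most 4 reached 5.60 in any group, and all 8 T cell markers measured did in every group. The members and lists were chosen with earlier results of these data known. Alternatives covered the replicate block, the variance model, a filter on levels, the choice of cluster, the clusters fitted, the centring and the arrays used. Promoter windows are those of RefSeq (GRCm38.p6), and motifs were matched by letters on both strands with Python 3.11.15.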

Additional observations from a re-analysis of the deposited data

Results flagged for a closer look

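The difference of Foxp3-positive from control cells was unlike in CD8 and CD4 cells for 2 of the 9 ligands. This is by the test of the difference itself, which 13.5% of all genes passed. For Ccl3 the CD8 effect minus the CD4 effect was 2.19 on the log2 scale, with effects of 0.64 in CD8 and -1.56 in CD4 cells. For Ccl4 the difference was 1.13, with effects of 0.57 in CD8 and -0.56 in CD4 cells. All 3 CD8 Foxp3-positive arrays lay above all 3 CD8 control arrays for both genes, and all 3 CD4 Foxp3-positive arrays lay below all 3 CD4 control arrays. Arrays did not overlap for 33.5% of all genes in CD8 and 37.8% in CD4 cells. The CD8 effect of Ccl3 did not pass by itself (limma adjusted p = 0.068). Each of the 2 Ccl4 calls was lost with 3 of the 6 arrays left out in turn. Days of culture differed between the cell types, and their part in this was not tested. Groups of 3 arrays are too small for a test of single outlying arrays.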

How the results depend on the processing

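Of 665 values of single ligands under other settings, 630 kept their side of the threshold, 19 lost a call, 16 gained one and 0 changed direction with a call. The 630 include uncalled values whose sign changed, such as Cxcl10 in CD8 cells (0.08, but -0.07 at the lowest with single arrays left out). Ccl22 in CD4 cells likewise went from -0.10 to as high as 0.22. The calls of Xcl1 and Ccl5 in both cell types, of Ccl3 in CD4 cells and of the Ccl3 and Ccl4 differences between cell types held in every setting run. The replicate letters were not treated as pairs, since the labels do not say that they mark a shared litter, day or batch. Deviations of same-lettered arrays correlated at -0.10 to 0.14 (median 0.04), and those of other letters at -0.14 to 0.09 (median -0.01). With replicate block the counts of ligands called were 3, 6, 2, 1 and 4 in the order CD8, CD4, their difference, Foxp3-positive cells and controls, the same as without, and 8 of 12 arrays correlated best with their own letter. For CD8 against CD4 in Foxp3-positive cells the count was 2 in place of 1 with a variance trend and with the level filter, which added Ccl22 (adjusted p = 0.047 and 0.0475), and that filter left 7 of the 9 ligands and 11813 genes. Leaving out single arrays gave 1 to 2 calls there, 2 to 4 in CD8 cells, 3 to 5 in CD4 cells, 2 to 3 for the difference and 3 to 5 in controls. Fitting only the 2 groups compared lost Ccl17 (adjusted p = 0.0701) and Cxcl10 (0.0572) in CD4 cells and called Ccl17 in CD8 cells (0.0451). Ccl3 in CD8 cells passed with a trend (0.0366) and with the filter (0.0353), and Xcl1 passed for the difference with the filter (0.0466). Between the controls Ccl5 passed in 4 settings (0.0129 to 0.0353) and Ccl1 with the filter (0.0414). The cause of these shifts was not tested. With 3 arrays per group the test on simulated data missed many small changes, and low signals such as Cxcl9 have no background to be read against.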

Other observations

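Ccl17 and Ccl22 varied between the arrays of a group in a like manner. Their lowest array was the same in all 4 groups and their highest in 3 of 4. Array A was the highest for both genes in CD4 Foxp3-positive cells, at 6.22 for Ccl17 and 7.60 for Ccl22, and array B in CD8 Foxp3-positive cells, at 5.52 and 6.54. For Ccl3 and Ccl4 the highest array was the same in 3 of 4 groups and the lowest in 1, and for Cxcl9 and Cxcl10 each in 1. Of 20 dendritic cell markers, 0 shared the lowest array of Ccl22 in all 4 groups, and 0 its highest. Xcr1, H2-Aa and Mgl2, which lay below 5.60 in all groups, shared its lowest array in 3 of 4 groups. A further 6 did in 2, and the rest in fewer. Zbtb46, Cd83, Fscn1, Ciita, H2-DMb2 and Batf3 shared the highest array of Ccl22 in 2 of 4 groups, and the rest in fewer. The part of dendritic cell RNA in this was not tested.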
